A study of Mus musculus with 6 samples.

Results

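The genes described here encode 3 systems of vasoactive peptides, which widen or narrow blood vessels: endothelin (Edn1, its receptors Ednra and Ednrb, and the converting enzyme Ece1), apelin (Apln and its receptor Aplnr) and adrenomedullin (Adm, the receptor Calcrl and its partner proteins Ramp1 and Ramp2). They are 10 of 21785 genes in the deposited table, found through their Ensembl gene IDs in GENCODE M21 (mm10), and all 10 had a row. They were chosen by their function with the differences between stimulated and control libraries already known. Their changes in that contrast are therefore given as a description, with no p-value, and the calls show only where each gene stood in a fit over all genes.

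RNA was sequenced from cultured mouse PASMCs, the pulmonary arterial smooth muscle cells that form the contractile layer of the lung's arteries. The cells were grown from the lungs of C57BL/6 mice after iron particles in agarose had been flushed into the pulmonary artery and the iron-holding vessel pieces pulled out with a magnet. All cultures spent 48 h in medium without supplements. The stimulated group (n = 3) then received BMP9 at 1 ng/mL together with BMP10 at 5 ng/mL for 6 h. Both are bone morphogenetic proteins, circulating ligands of the TGF-beta family. The control group (n = 3) received neither. Both ligands were given together, so their effects cannot be told apart, and the labels name no sorting step and no age or sex of the animals. They also do not say whether samples of a group were separate cultures or animals, so the spread between them may be technical.

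In the endothelin system, the peptide is made as a long precursor, cut by furin-type proteases, and released in active form by the endothelin converting enzyme. On smooth muscle both receptors drive contraction, while on endothelium the B receptor releases nitric oxide and clears endothelin from the blood. Apelin acts through a single G protein-coupled receptor and mostly relaxes vessels. Adrenomedullin, a vasodilator, acts through the calcitonin receptor-like receptor, which reaches the cell surface only with a receptor activity-modifying protein: with RAMP2 or RAMP3 it binds adrenomedullin, and with RAMP1 it binds the calcitonin gene-related peptide (CGRP).

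Levels are normalized read counts, here called normalized reads, and changes are differences of log2(value + 1) with their SE, control subtracted from stimulated. A gene counts as called at an adjusted p under 0.05 in limma over 21743 genes. Library totals were 27295973 to 31903795. Transcripts of several cell types were present in every library. The smooth muscle marker Acta2 was at 23470 to 37627 in controls and at 69094 to 153164 in stimulated cells. Over all libraries, Myh11 ranged from 2154 to 4871, the endothelial marker Cdh5 from 2104 to 12615 and the macrophage marker Lyz2 from 81014 to 179899. No marker on any of the 8 cell type lists was at 0 in all libraries. In such bulk RNA, fewer cells of a type and less RNA per cell cannot be told apart.

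The 3 peptide genes held the largest changes among the 10, Edn1 upward and Apln and Adm downward, so the 250 bases before their start sites are shown (RefSeq, GRCm38.p6, gene strand, 5′ to 3′). Edn1 lies on chromosome 13 (chr13:42301226-42301475, plus strand), Adm on chromosome 7 (chr7:110627407-110627656, plus strand) and Apln on the X chromosome (chrX:48034854-48035103, minus strand). Capitals mark matches to the motifs searched.
Edn1: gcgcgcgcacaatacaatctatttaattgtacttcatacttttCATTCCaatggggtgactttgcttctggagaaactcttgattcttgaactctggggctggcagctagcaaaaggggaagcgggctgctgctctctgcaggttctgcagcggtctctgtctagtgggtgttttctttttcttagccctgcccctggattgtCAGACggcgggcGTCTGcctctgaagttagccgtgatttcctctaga
Adm: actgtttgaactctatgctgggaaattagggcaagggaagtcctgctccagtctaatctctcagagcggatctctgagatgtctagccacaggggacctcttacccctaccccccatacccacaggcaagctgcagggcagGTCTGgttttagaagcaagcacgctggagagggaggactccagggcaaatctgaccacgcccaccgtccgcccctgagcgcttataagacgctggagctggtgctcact
Apln: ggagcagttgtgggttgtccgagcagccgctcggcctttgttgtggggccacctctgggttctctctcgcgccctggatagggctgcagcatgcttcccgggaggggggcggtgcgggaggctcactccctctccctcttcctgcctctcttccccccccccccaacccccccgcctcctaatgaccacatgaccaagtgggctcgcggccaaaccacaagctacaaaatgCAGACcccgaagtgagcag

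Searched on both strands were the SMAD box (GTCTG), the GC-rich SMAD1/5 element (GGCGCC), and the motifs of AP-1 (TGANTCA), hypoxia-inducible factors (ACGTG), GATA factors (AGATAA), the TATA box (TATAAA), RBPJ (GTGGGAA), CREB (TGACGTCA) and TEAD factors (GGAATG). The Edn1 window held 2 SMAD boxes in opposite orientations, at 47 and 35 bases before the start site. Over 32851 promoters of the same length, 11.7% held at least 2 SMAD boxes. Among members whose windows are not shown, Ednra, lower in every stimulated library, also had 2, at 172 and 167 bases before its start. A TEAD match lay 207 bases before the Edn1 start, as in 12.6% of promoters. Adm and Apln each held 1 SMAD box, at 109 and 19 bases before the start, and 42.2% of all promoters hold at least 1. None of the 3 windows had a match to the other 7 motifs. No match overlapped another, and a match describes letters only, not a bound site.

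Of the 10 members, 1 was higher and 3 were lower in stimulated cells, and 6 were not called. Over all genes tested, 8.61% were called higher and 4.75% lower (1873 and 1032 genes, against 1135 and 2265 with equal library totals and 1418 and 1365 with upper-quartile factors, which shifted the median log2 change of all genes to -0.20 and -0.11). The groups did not overlap for 5 members, against 33.2% of all genes. When the fit also held the replicate number as a block, 1 member was higher and 5 lower, against 14.9% and 12.0% of all genes. The median log2 change was -0.74 over the members and -0.03 over all genes, and nothing is read from these counts because the contrast was known when the genes were chosen. Per kilobase of exon, which allows levels of different genes to be compared, Adm was the most abundant member in controls (1369 ± 131 normalized reads per kb, SD) and Ece1 in stimulated cells (970 ± 14.2).

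**Figure D1:**
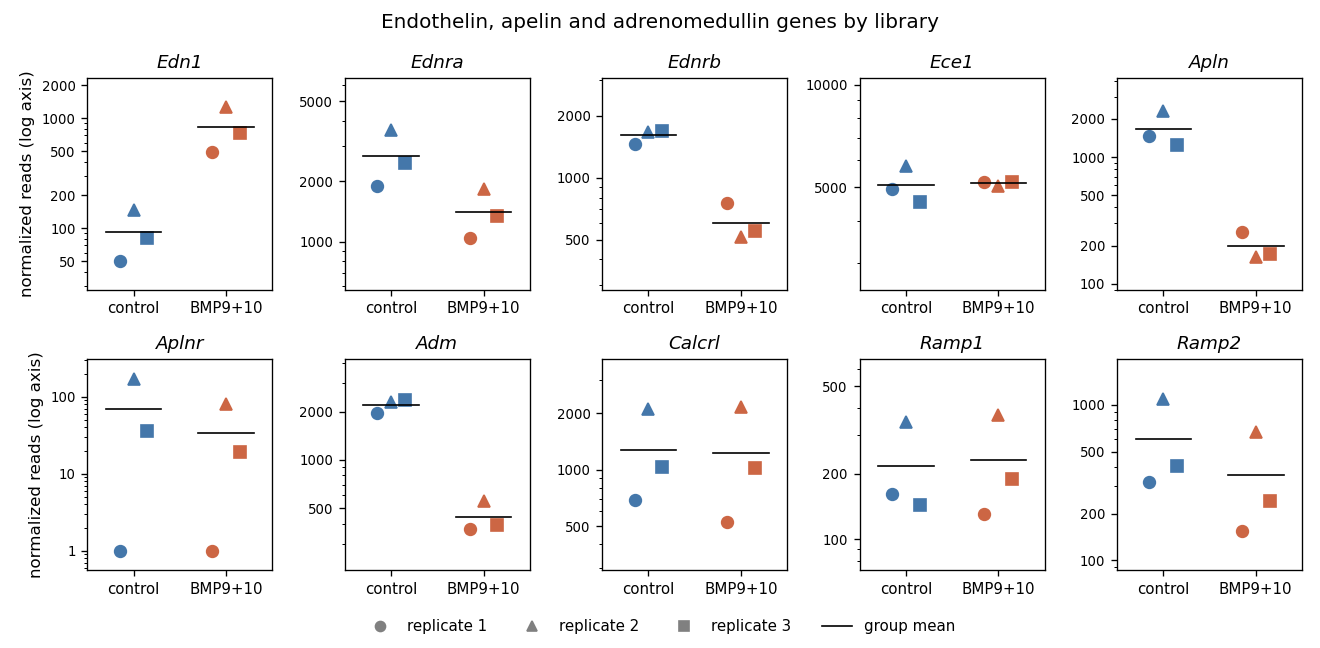
Normalized reads (log axes, one scale per gene) of the 10 genes in 3 control and 3 BMP9 plus BMP10 libraries; symbols mark the replicate number and black lines the group mean. Edn1 sits between 50 and 146 in controls and between 489 and 1277 after stimulation, while Apln and Adm are lower in every stimulated library than in any control.

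Edn1, the gene of the vasoconstrictor endothelin-1 (chromosome 13, 42301476 to 42307990), was at 50, 146 and 82 normalized reads in control replicates 1, 2 and 3 and at 489, 1277 and 732 in the stimulated ones. The lowest stimulated library was above the highest control, and replicate 2 was the highest of both groups. The means were 92.7 ± 48.9 and 833 ± 404 (SD, n = 3 each), a ratio of 8.99, and the fitted log2 change was 3.18 ± 0.46. Taken by replicate number, the ratios were 9.78, 8.75 and 8.93. These ratios lay close together although the levels did not: the SD of log2 levels was 0.76 in controls and 0.69 in stimulated cells, and that of the change by replicate number was 0.08. Of the exonic bases of Edn1, 1.6% also lie in exons annotated on the other strand.

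Ece1, which encodes the enzyme that releases active endothelin (chromosome 4, 137862237 to 137965229), differed little between the groups. It was at 4954, 5792 and 4524 normalized reads in controls and at 5177, 5057 and 5195 in stimulated cells. The ranges overlapped, and the log2 change was 0.02 ± 0.10 with a 95% interval from -0.22 to 0.26. The sign of this small difference depended on the scaling. In reads per kb, Edn1 was at 0.0441 ± 0.0187 of Ece1 in controls and 0.403 ± 0.201 in stimulated cells, without overlap.

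Both endothelin receptor genes were lower in every stimulated library than in any control. Ednra, the A receptor of smooth muscle (chromosome 8, 77663031 to 77724464), was at 1885, 3616 and 2470 in controls and at 1038, 1819 and 1334 after stimulation. Its ratio was 0.551, 0.503 and 0.540 by replicate number, close to equal in all of them, while the library levels within a group differed by more. The log2 change was -0.91 ± 0.28, which was not called. With the replicate block the SE was 0.07 and the gene was called lower, as it was with equal library totals (-1.09).

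Ednrb, the B receptor gene (chromosome 14, 103814625 to 103844402), fell from 1452, 1672 and 1689 to 751, 514 and 550. Its means were 1604 ± 132 and 605 ± 128, a log2 change of -1.42 ± 0.16. Here the replicate numbers differed, with ratios of 0.517, 0.307 and 0.326, and replicate 1 changed least. Per kb, the ratio of Ednra to Ednrb was 1.01, 1.69 and 1.14 in controls and 1.08, 2.76 and 1.89 in stimulated cells. It moved little in replicate 1 and by 1.64 and 1.66 times in replicates 2 and 3, and the groups overlapped.

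Apln, the apelin gene (X chromosome, 48025146 to 48034853), was at 1463, 2317 and 1240 normalized reads in controls and at 257, 162 and 172 after stimulation. The highest stimulated library lay below the lowest control. The mean fell from 1673 ± 569 to 197 ± 52.2, which is 8.49 times lower, with a log2 change of -3.06 ± 0.27. In contrast to Edn1 and Ednra, the change differed between replicate numbers: the ratio was 0.176, 0.0699 and 0.139. Replicate 2, the highest control library, was the lowest stimulated one.

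Aplnr, the apelin receptor gene (chromosome 2, 85136225 to 85139923), was at 1, 171 and 36 in controls and at 1, 81 and 19 in stimulated cells. Both replicate 1 libraries thus held almost no reads of it, and the groups overlapped. Its log2 change was -0.65 ± 1.86, with an interval from -5.05 to 3.75, so the fit could not place it. In replicates 2 and 3 the ratio was 0.474 and 0.528. It was the lowest member per kb in both groups, at 18.7 ± 24.3 and 9.10 ± 11.4.

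**Figure D2:**
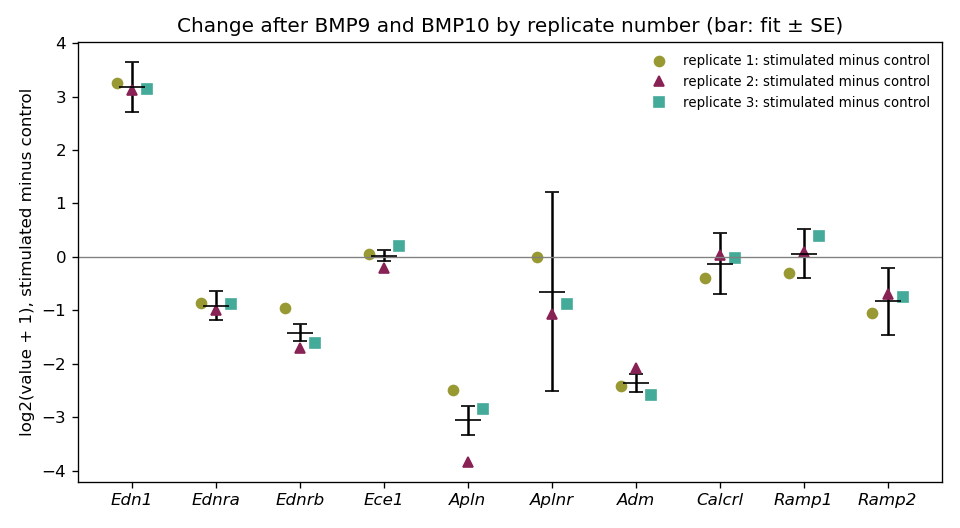
Change in log2(value + 1), stimulated minus control, for each gene; symbols give the difference within each replicate number and black bars the fitted change ± SE over 3 against 3 libraries. Edn1 lies at 3.12 to 3.26 in all replicate numbers, Apln spreads from -3.83 to -2.50, and the wide bars of Aplnr, Calcrl, Ramp1 and Ramp2 stand beside smaller spreads within replicate numbers.

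Adm, the adrenomedullin gene (chromosome 7, 110627661 to 110629820), fell from 1973, 2313 and 2361 normalized reads in controls to 368, 551 and 394. The control libraries lay close together, and all stimulated libraries were far below them. The log2 change was -2.36 ± 0.17, with ratios of 0.187, 0.238 and 0.167 by replicate number. Adm went from the first place among the members per kb to the third, with 270 ± 61.2, where its range overlapped with those of Edn1 (389 ± 189) and Ednra (255 ± 72). In controls, Edn1 was the second lowest member per kb, at 43.3 ± 22.9. The per-kb ratio of Edn1 to Adm was 0.0192, 0.0478 and 0.0263 in controls and 1.01, 1.75 and 1.41 after stimulation.

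Calcrl, which encodes the receptor that binds adrenomedullin or CGRP (chromosome 2, 84330626 to 84425411), was at 691, 2102 and 1037 in controls and at 524, 2160 and 1020 in stimulated cells. The libraries of equal number were close to each other, and the ones within a group were far apart. The log2 change was -0.13 ± 0.57, with a 95% interval from -1.48 to 1.23, so changes of more than 1 on the log2 scale lie inside it in both directions. With the replicate block it was -0.13 ± 0.10, again not called.

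Ramp2, whose protein turns that receptor into an adrenomedullin receptor (chromosome 11, 101246028 to 101259546), was at 321, 1095 and 403 in controls and at 155, 674 and 240 after stimulation. The groups overlapped because replicate 2 was high in both, yet the stimulated library was the lower one in each replicate number, at ratios of 0.483, 0.616 and 0.596. The log2 change of -0.83 ± 0.63 was not called. With the replicate block it was -0.83 ± 0.11 and was called lower. With 1 library left out it lay between -1.43 (without stimulated replicate 2) and -0.30 (without control replicate 2), not called, and at -0.37 without stimulated replicate 1. Exons of another gene on the same strand, Vps25, cover 33.4% of the exonic bases of Ramp2, so its level is uncertain.

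Ramp1, whose protein turns the same receptor into a CGRP receptor (chromosome 1, 91179822 to 91225196), was at 161, 345 and 144 in controls and at 130, 370 and 189 in stimulated cells. The ranges overlapped, the log2 change was 0.06 ± 0.46, and it was not called with the block either. Its sign turned with other scalings. Per kb, the ratio of Ramp1 to Ramp2 was 0.548, 0.344 and 0.390 in controls and 0.916, 0.599 and 0.860 in stimulated cells, without overlap. The ratio of Ramp2 to Calcrl was 0.687, 0.770 and 0.575 in controls and 0.438, 0.462 and 0.348 in stimulated cells, also without overlap. The ratio of Ramp1 to Calcrl overlapped between the groups, with means of 0.289 ± 0.0788 and 0.326 ± 0.0662. The ratios to Ramp2 share its uncertain level.

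**Figure D3:**
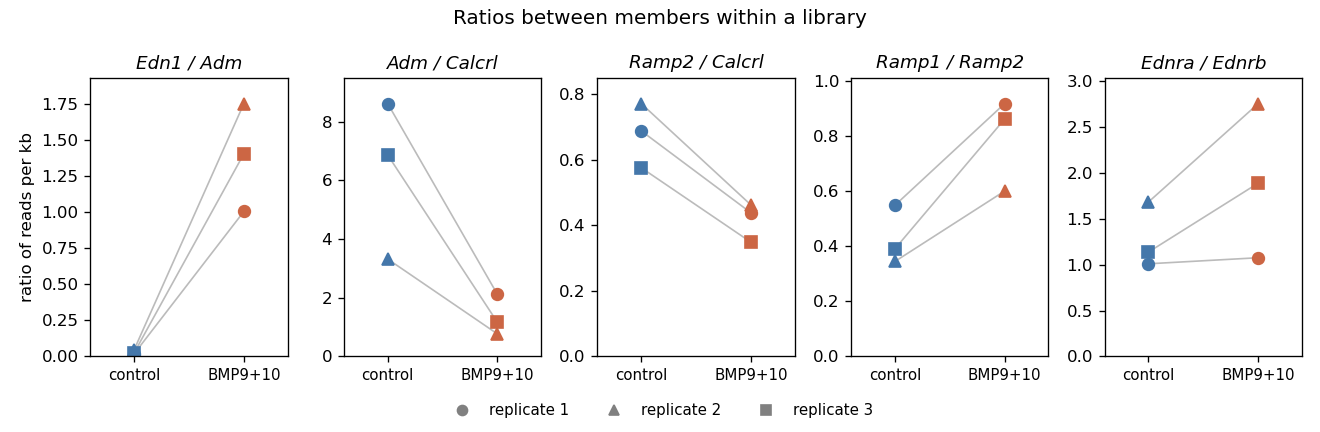
Ratio of reads per kb of exon between members within a library (linear axes from 0); grey lines join libraries of the same replicate number. Edn1 to Adm goes from below 0.05 to 1.01 or more, Ramp2 to Calcrl is lower and Ramp1 to Ramp2 higher in all stimulated libraries, and Ednra to Ednrb hardly differs in replicate 1.

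The order of abundance per kb was set apart from library spread at few places. In controls, the library ranges of Adm and Ece1 overlapped neither with each other nor with the next gene, Apln. From Apln downward through Ednra, Ednrb, Calcrl, Ramp2, Ramp1, Edn1 and Aplnr, each gene's range overlapped with the next one's. In stimulated cells, Ece1 stood above all others, and the ranges of the next 8 genes overlapped from neighbour to neighbour, from Edn1 through Adm, Ednra, Calcrl, Ednrb, Ramp2 and Ramp1 to Apln. Aplnr lay below them.

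Much of the spread within a group followed the replicate number. In controls, 8 of the 10 members were highest in replicate 2, and 7 of 10 in stimulated cells, against 40.0% and 42.2% of the 13185 genes averaging 50 or more. All 22 endothelial markers on the list were highest in replicate 2 of both groups, at a median of 3.63 times the mean of the other replicates in controls and 3.56 times in stimulated cells. This was not particular to endothelial genes: all 4 mesothelial markers were highest there too, at medians of 4.28 and 6.975 times. Of 7 epithelial markers, 6 were highest there in controls (median 3.75 times) and 4 in stimulated cells (2.03). Of 7 macrophage and leukocyte markers, 3 and 1 were (1.24 and 0.721). Ramp2 was at 3.03 and 3.41 times, Calcrl at 2.43 and 2.80, Ramp1 at 2.26 and 2.32, Edn1 at 2.21 and 2.09, and Aplnr at 9.24 and 8.10. For Ednrb (1.07 and 0.790), Ece1 (1.22 and 0.975) and Adm (1.07 and 1.45) the values were closer to 1, and for Apln they were 1.71 and 0.755.

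Edn1, Ednra, Aplnr, Calcrl and Ramp2 had the library order 2, 3, 1 from high to low in both groups, which 15.6% of genes with a mean of at least 50 share. The summed endothelial markers had this order too (18917 to 61557 in controls, 19974 to 71904 in stimulated cells), and so did those of smooth muscle (34382 to 53248 and 83819 to 178986), pericytes (22217 to 31987 and 32740 to 42206), fibroblasts (302979 to 406554 and 258434 to 460544), epithelium (7025 to 28318 and 3087 to 34321) and mesothelium (532 to 2530 and 181 to 2006). Single genes set some of these sums: without Acta2, the smooth muscle sum in controls 1, 2 and 3 was 10912, 15621 and 16343, and without Sftpc the epithelial one was 6199, 8780 and 2660, neither in that order. In stimulated replicates 1, 2 and 3 the same sums were 14725, 25822 and 18578, and 1973, 4852 and 3627, both in the order 2, 3, 1. Of the 8 smooth muscle markers, 3 were highest in control replicate 2 and all 8 in stimulated replicate 2. The lymphatic endothelial (8592 to 10351 and 6228 to 9261) and macrophage sums (91046 to 156417 and 136802 to 203835) did not have the order 2, 3, 1. Without Pdpn, the lymphatic sum in replicates 1, 2 and 3 was 1248, 2845 and 1480 in controls and 1079, 1425 and 970 in stimulated cells. It was then highest in replicate 2 of both groups, with the order 2, 3, 1 in controls only. Some markers moved with the treatment, as some members did. Limma called the smooth muscle genes Acta2, Tagln, Cnn1 and Lmod1 and the pericyte genes Pdgfrb and Cspg4 higher and the fibroblast gene Pdgfra lower. The smooth muscle sum, most of it Acta2, was 2.44, 3.36 and 2.55 times as high by replicate number. Without Acta2, the sums given above were also higher in the stimulated library of each number, but by less. The lists did not move as one: 5 of 8 smooth muscle markers were higher in every replicate number and 1 (Des) was lower. Of 7 pericyte markers, 3 were higher and 1 (Kcnj8) was lower, and of 8 fibroblast markers 0 were higher and 4 lower. The part of these cell types in the members' levels was not tested.

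**Figure D4:**
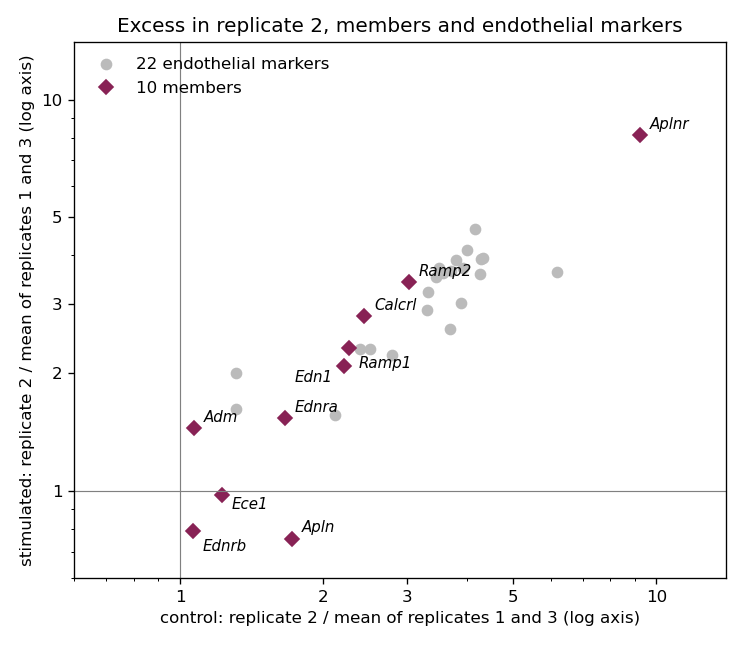
Level in replicate 2 divided by the mean of replicates 1 and 3, in control (x) and stimulated libraries (y, both log axes), for the 10 members and 22 endothelial markers. Ramp2, Calcrl, Ramp1 and Edn1 lie between 2 and 4 on both axes among or near the markers, Aplnr lies above 8, and Ednrb, Ece1 and Apln lie below 1 on the y axis, with Adm at 1.45 and Ednra at 1.53.

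Set against the summed endothelial markers of the same library, the spread of some members became small. Of these 22 markers, Eng and Flt1 were called higher and none lower, and the sum was 1.06, 1.17 and 1.46 times as high by replicate number. The list did not move as one: its median log2 change was -0.13, and 7 of the markers, Nos3, Tek and Robo4 among them, were lower in every replicate number while 7 were higher. Per 1000 reads of the sum, Ramp2 was at 17.0, 17.8 and 18.7 in controls and at 7.76, 9.37 and 7.64 in stimulated cells. Per 1000 reads of Pecam1 alone, an endothelial adhesion gene picked after its values were seen, Ramp2 was at 141 ± 13.5 and 75.2 ± 2.78. Neither measure overlapped between the groups.

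Edn1 stayed apart on both measures, with 2.94 ± 0.766 and 21.9 ± 3.59 per 1000 reads of the marker sum and 23.3 ± 6.46 and 204 ± 57.2 per 1000 of Pecam1. Calcrl was at 39.6 ± 7.53 and 29.6 ± 3.14 per 1000 of the sum, without overlap, and at 314 ± 67.8 and 273 ± 52.8 per 1000 of Pecam1, with overlap. Adm and Apln were also without overlap on both measures, and Ednra on the sum but not on Pecam1. Ednrb overlapped on both: per 1000 of the sum it was at 76.8, 27.2 and 78.5 in controls and at 37.6, 7.15 and 17.5 in stimulated cells.

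Of 46 further genes listed for these systems, 40 were tested, and limma called 6 higher and 2 lower. Over all genes, 8.61% were called higher and 4.75% lower. The partners' split changed with the scaling, to 4 higher and 4 lower with equal library totals. With the replicate block, 11 partners were called higher and 4 lower, against 14.9% and 12.0% of all genes. The partners' median log2 change was 0.04. These lists were also chosen with earlier results of these data known. Their calls and p-values show only where each gene stood in the fit over all genes. Among 9 endothelin partners, limma called the precursor protease genes Pcsk5 and Furin higher and none lower. Pcsk5 went from 345, 577 and 356 to 1774, 2142 and 1708 (2.17 ± 0.21, limma adjusted p = 0.0018), and Furin from 5348 ± 947 to 8717 ± 737 (0.72 ± 0.14, limma adjusted p = 0.017). Mme, whose protease neprilysin degrades endothelin and other peptides, was at 794 ± 184 and 688 ± 205, and the second converting enzyme gene Ece2 at 694 ± 211 and 747 ± 115, neither of them called. Edn3, the gene of another endothelin, reached 18 normalized reads at most. Edn2 had no row under its symbol in the deposited table and was not tested.

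Among 7 adrenomedullin and CGRP partners, limma called 1 lower and none higher, against 4.75% and 8.61% of all genes. Ramp3, whose protein also makes an adrenomedullin receptor of Calcrl, went from 84, 63 and 92 to 40, 25 and 37 (-1.21 ± 0.27, limma adjusted p = 0.0296). Unlike Ramp2, it was lowest in replicate 2 of both groups. Pam, which amidates adrenomedullin to its active form, was at 9373 ± 1556 and 8848 ± 479 and was not called. The CGRP gene Calcb reached 5 normalized reads at most.

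**Figure D5:**
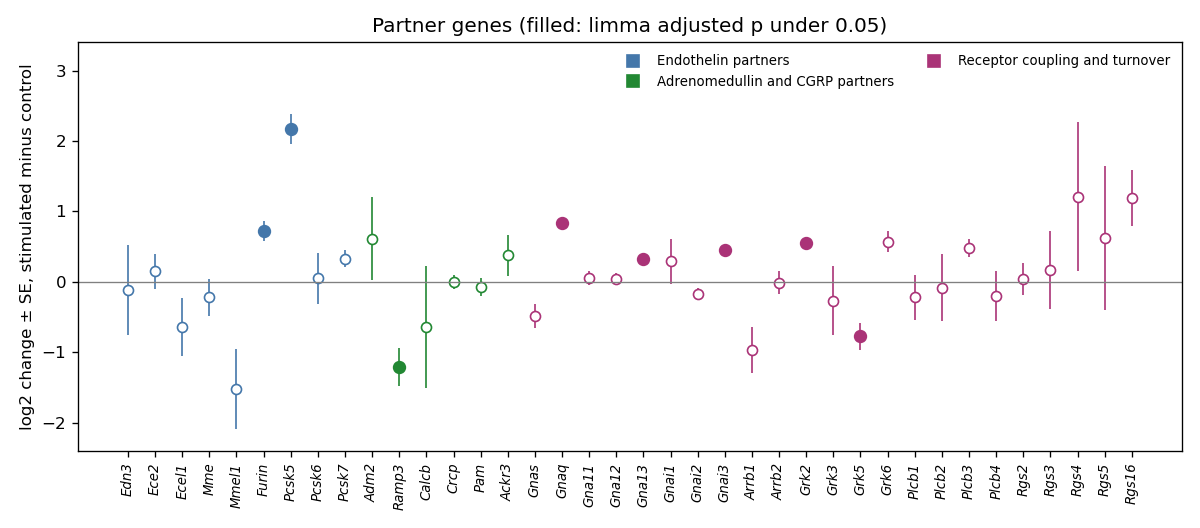
Change in log2(value + 1) ± SE, stimulated minus control, of the endothelin, adrenomedullin and coupling partner genes reported, coloured by list; filled symbols passed limma's adjusted p of 0.05 over all genes. Pcsk5 stands highest at 2.17, Ramp3 is the lowest filled symbol at -1.21, and most genes lie within 1 of 0.

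Among 23 genes of receptor coupling and turnover, limma called 4 higher and 1 lower, against 8.61% and 4.75% of all genes. With the replicate block it called 9 higher and 3 lower, against 14.9% and 12.0% of all genes. Gnaq, the G protein subunit through which endothelin receptors raise calcium, went from 2988 ± 213 to 5311 ± 285 (0.83 ± 0.09, limma adjusted p = 0.00219), while its close relative Gna11 had a change of 0.06 ± 0.10 and was not called. Gnai3 (0.45 ± 0.09), Gna13 (0.32 ± 0.08) and the receptor kinase gene Grk2 (0.55 ± 0.09) also rose, and the kinase gene Grk5 fell by 0.77 ± 0.19. With equal library totals, limma no longer called Gnai3 (0.28, adjusted p = 0.0603) or Gna13 (0.145, adjusted p = 0.236), and upper-quartile factors also lost Gna13 (0.24, adjusted p = 0.106). Gnai2, the most abundant on this list, was at 17350 ± 1135 and 15410 ± 998 and was not called. Pcsk5 and Gnaq were called under each of 16 alternatives. The calls of Furin, Ramp3, Gnai3, Gna13, Grk2 and Grk5 were each lost without control replicate 3, and all of these but Grk2 also without control replicate 1 and without stimulated replicate 3 (adjusted p from 0.0517 to 0.157 over these fits). Without the intensity trend, all of them but Ramp3 were lost (limma adjusted p from 0.0511 to 0.132). Gna13 and Grk5 were also lost without control replicate 2, and Grk5 without stimulated replicate 1. Ramp3, Gna13 and Gnai3 were lost without stimulated replicate 2.

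By Pearson correlation of log2(value + 1) over the 6 libraries among 12356 named genes with a mean of at least 50, the genes most like Edn1 were Adamts10 (r = 0.999), Zfp568 (0.999) and Bcl11a (0.998). Those most like Apln were Sppl2b (0.997), Uap1l1 (0.996) and Phf1 (0.995), and those most like Adm were Frmd5 (0.999), Rgl1 (0.999) and Fam43a (0.998). The points share the treatment and the replicate numbers, and the likeness is of pattern, not size: the log2 change of Adamts10 was 1.29 and that of Sppl2b -0.45.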

How the data were processed

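Total RNA of 3 control and 3 stimulated PASMC samples was made into stranded libraries, per the labels' protocols. Per the submitters' processing notes, which give neither roles nor order, the tools include DESeq2 (1.18.1), featureCounts (1.6.3), STAR (2.6.1d), Trimmomatic (0.38) and FastQC. The notes list mm10 beside the human builds hg38 and GRCh38. Which annotation and strand setting the counting used is not given in the sources used here. The deposited values are a score for each gene in each library: whole numbers whose gaps fit read counts scaled by 1 factor per library and rounded (11 of the numbers below 46 never occur in stimulated replicate 1). Reads were not recovered, so no count model was used.

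From these values, log2(value + 1) was fitted with limma 3.58.1 (R 4.3.3) with an intensity trend and treatment as the only term, for 21743 genes with a mean of at least 1 (42 left out, all 10 members kept), with Benjamini-Hochberg adjustment and 4 residual degrees of freedom. The script was tested on simulated data. Of the gene IDs, 21747 of 21785 matched GENCODE M21. The members, partner and marker lists and alternatives were chosen with earlier results of these data known. Partner genes are named if called or among the 2 highest of their list, and others (Mme, Ece2, Edn3, Calcb, Gna11) were picked after their values were seen. Some partner genes under this rule are not reported here. For Edn1, Apln and Adm, the 3 most correlated genes are named.

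The sample titles number the replicates 1 to 3 in each group. Libraries sharing a number deviated together from their group means, with correlations of 0.747, 0.741 and 0.218 across 13185 genes averaging 50 or more. All exceed 0.1, which was taken as pairing by number. The calls, SEs and p-values given are nevertheless those without the block, except where the block is named. Control replicate 3 correlated more with stimulated replicate 1 (0.287), which also exceeds 0.1. Libraries of a group deviate from a mean they share, so these correlations depend on each other. Passing 0.1 cannot by itself establish pairing. The pairing of replicate 3 is therefore uncertain, and so is its part in the block fits and the ratios by replicate number. Exon lengths are unions over transcripts. Of the 10 members, 8 had an entry in the RefSeq promoter table. Alternatives were other pseudocounts, filters and scalings, no intensity trend, the replicate block and leaving out libraries.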

Additional observations from a re-analysis of the deposited data

How the results depend on the processing

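Edn1, Ednrb, Apln and Adm kept their direction and call under all 16 alternatives (log2 change 2.80 to 3.57, -1.60 to -1.28, -3.27 to -2.67 and -2.53 to -2.24). The number of members called was 4 to 6, except 7 with equal library totals and the replicate block together, where Calcrl passed too (-0.30). Over all genes, 2905 were called, against 5837 with the replicate block, 6957 with equal totals and the block, 1610 without the intensity trend and 917 to 2384 with 1 library left out. Of the partners 8 were called (6 higher, 2 lower), against 15 with the replicate block, 17 with equal totals and the block (9 and 8), 3 without the trend and 2 to 10 with 1 library left out. Of the called genes, 64.5% were higher on the deposited scale, 51.0% after upper-quartile scaling and 33.4% after scaling to equal totals, and the median log2 change of all genes went from -0.03 to -0.11 and -0.20. Of the 6 uncalled members, Ednra and Ramp2 kept their sign under all 16 alternatives, and Ramp2 ranged from -1.43 to -0.30 with 1 library left out. The signs of the other 4 turned. Ece1 was at 0.02, against -0.15 with equal totals (with and without the block) and -0.058 with upper-quartile factors, and ranged from -0.059 to 0.12 with 1 library left out. Ramp1 was at 0.06, against -0.11 and -0.019 under the same scalings, and ranged from -0.35 to 0.45. Aplnr ranged from -2.43 to 0.80 and Calcrl from -0.65 to 0.37. Reversals of Aplnr and Calcrl came without control replicate 2 or stimulated replicate 1, and the cause was not tested. The wide interval of Aplnr goes with its spread between libraries, from 1 to 171 normalized reads in controls. It also depends on the pseudocount: the SE was 1.86 in the main fit, 2.17 with a pseudocount of 0.1 and 1.11 with 10. With the replicate block the SE was 0.35.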
